A study of Mus musculus with 9 samples.

Results

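Potassium channel genes were examined in cells of the mouse retina sorted as RGCs. They are the genes of the deposited expression table whose symbol begins with Kcn and carries a family letter and a number, without the 3 antisense names Kcnab3os, Kcnmb4os1 and Kcnmb4os2. This left 40 of the 15228 genes listed. Of these, 39 code for a channel subunit, and Kcnq1ot1, which the pattern also matches, is an imprinted noncoding RNA. By symbol, 19 were voltage-gated channels (Kcna, Kcnb, Kcnc, Kcnd, Kcng, Kcnh, Kcnq and Kcnv), 8 were auxiliary subunits of such channels (Kcnab, Kcne and Kcnip), 5 were inward rectifiers (Kcnj), 2 were two-pore channels (Kcnk) and 5 were calcium-activated channels (Kcnma, Kcnmb, Kcnn) or the related sodium-activated Kcnt1. The cells were from wild-type C57BL/6J mice and fell into 3 groups of 3 libraries. The Ctrl group came from intact retinas. The ONC group came from retinas 3 d after optic nerve crush with intraocular PBS, and the TPEN group from retinas 3 d after the same crush with intraocular TPEN, a membrane-permeable zinc chelator. Nothing in the sources used here says whether each library was made from its own mice, so the p-values measure only the spread between these libraries, which may be technical.

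Potassium channels let potassium leave or enter a cell along its gradient, and so set the resting potential, end each action potential and shape the firing pattern of a neuron. Inward rectifiers hold the resting potential and, in Müller glia, take up and redistribute the potassium that active neurons release. Voltage-gated channels open on depolarization, two-pore channels carry background currents, and calcium-activated channels link calcium entry to repolarization. Kcnv2 is an electrically silent subunit that modifies voltage-gated channels of photoreceptors, which carry an outward current at the inner segment that balances the dark current.

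The sort kept cells positive for CD90.2, the product of Thy1, and negative for CD48, CD15 and CD57. The authors also stained sorted cells for RBPMS, an RGC marker. The libraries held much rod RNA. Gnat1, the gene of rod transducin, averaged 10641 RPKM (reads divided by exon length and library size), while the 9 RGC markers in the table lay between Pou4f1 at 0.332 and Nefl at 240 RPKM. Rbpms and Slc17a6 averaged 0.439 and 0.380 RPKM, Isl1, Tubb3 and Thy1 1.83, 3.92 and 5.74 RPKM, and Sncg and Nefm 20.5 and 51.5 RPKM. The summed level of 9 rod markers ranged from 19835 to 20676 RPKM in Ctrl, from 17505 to 17710 in ONC and from 18718 to 18829 in TPEN. That of the RGC markers ranged from 333 to 344, from 349 to 370 and from 269 to 281 RPKM, in the same order of groups. Nefl and Nefm, which share 1108 exon bases on opposite strands, made up most of this sum. The means of Rbpms, Pou4f1, Isl1 and Tubb3 were lower in ONC than in Ctrl. Those of Slc17a6, Sncg, Thy1, Nefl and Nefm were higher there. Thy1 averaged 4.74, 5.35 and 7.12 RPKM, highest in TPEN. The summed level of 7 cone markers ranged from 131 to 137, from 113 to 121 and from 202 to 205 RPKM. That of 9 markers of microglia and macrophages ranged from 3.87 to 4.72, from 39.9 to 41.4 and from 20.6 to 22.6 RPKM. None of the markers summed here was at 0 in a library, and Pou4f2 of the RGC list and Tyrobp of the microglia list were not analysed here. RGCs is used here as the name of the sort, not as the source of each transcript. In such pooled cells, fewer cells of a type and less RNA per cell cannot be told apart. Library totals ranged from 19946993 to 23109754 reads. Across all listed genes, which are not independent replicates, log2 levels had Pearson correlations of 0.991 to 0.993 within groups and 0.972 to 0.985 between groups, and no library stood apart.

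Most channel genes were scarce and a few were very abundant. The median channel gene averaged 0.670 RPKM, while the median of all genes listed was 4.10 RPKM, and 6 of the 40 lay above that level. Kcnj14 and Kcnv2 averaged over 100 RPKM and ranked 230 and 306 of all genes listed. Kcnab2 and Kcne2 followed at 49.6 and 19.3 RPKM, 12 genes averaged between 1 and 10 RPKM, and 5 between 0.5 and 1 RPKM. The remaining 18 averaged less than 0.5 RPKM, down to 8 reads for a gene in a library, and the 22 others entered the main test. Of 22 channel genes chosen as landmarks of retinal or neuronal potassium currents, 11 were in the table, and Kcnj2, Kcnj8, Kcnj13, Kcna1, Kcna3, Kcnc2, Kcnn4, Kcnk2, Kcnk4, Kcnk6 and Kcnk13 were not analysed here.

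**Figure D1:**
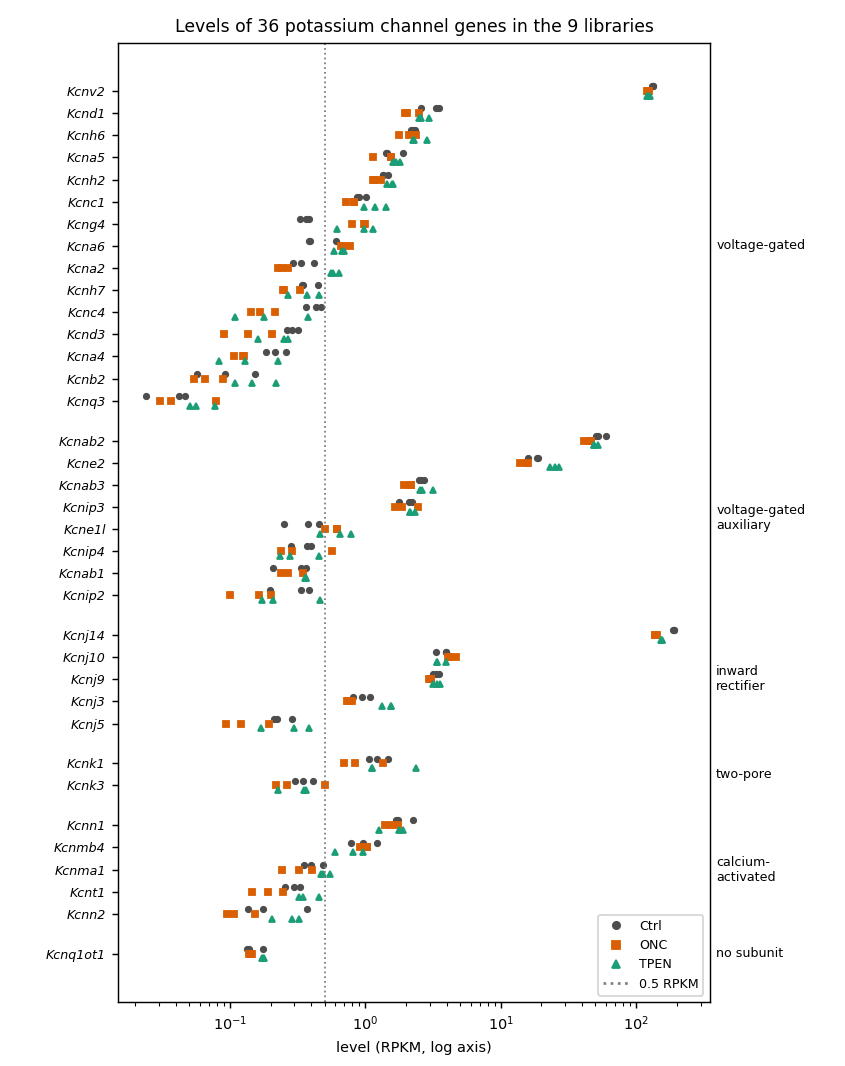
Level of 36 of the 40 genes in the 9 libraries, in RPKM on a log axis, grouped by class. Circles are Ctrl, squares ONC and triangles TPEN libraries, and the dotted line marks 0.5 RPKM, which 22 of the 40 exceeded on average. Kcnj14 and Kcnv2 lie at the right edge, above 100 RPKM in every library.

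Groups were compared with limma on log2(RPKM + 0.1) over the 13566 genes averaging 0.5 RPKM or more, with p-values adjusted over all of them by the Benjamini-Hochberg method. A gene rose or fell where its adjusted p was under 0.05, and was a DEG where its fold change was also at least 1.5. The added 0.1 RPKM makes the fold changes of scarce genes smaller than the ratios of their means. In ONC/Ctrl, Kcng4 rose, whereas Kcnj14, Kcnv2, Kcnab2 and Kcnd1 were among those that fell. Thus 1 of 22 channel genes was higher, where 11.7% of all genes tested were, and 5 were lower, where 6.97% were. In TPEN/ONC, 5 rose (among them Kcnj14, Kcnj3, Kcne2 and Kcnab3), against 3.24% of all genes. None fell there with limma, where 4.14% of all genes did, although Kcnj10 was lower at an unadjusted p under 0.05 and was the 1 gene called lower by voom on whole reads. In TPEN/Ctrl, 3 rose (Kcng4, Kcnj3 and Kcne2), against 8.36% of all genes, and 3 fell (among them Kcnj14 and Kcnv2), against 5.01%. The channel DEGs were all higher: Kcng4 in ONC/Ctrl (4.58% of all genes were higher DEGs and 0.752% lower), Kcnj3 and Kcne2 in TPEN/ONC (0.818% higher and 1.21% lower), and Kcng4 and Kcnj3 in TPEN/Ctrl (3.45% higher and 0.457% lower).

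Over all 22 genes, called or not, most differences were below 0 in ONC/Ctrl and above 0 in TPEN/ONC. The median log2 fold change of the 22 genes was -0.18 in ONC/Ctrl, with 17 values below 0 and 5 above, against a median of 0.017 for all genes tested. In TPEN/ONC it was 0.16, with 18 values above 0 and 4 below, against -0.011. In TPEN/Ctrl it was 0.094, with 14 values above 0 and 8 below, against 0.012. ONC/Ctrl and TPEN/ONC share the ONC libraries, so a low value in these libraries enters both. The ONC mean was the lowest of the 3 group means for 17 of the 22 genes, or 77.3%, against 31.6% of all genes tested. Every ONC library lay below every Ctrl library for 12 channel genes (15.8% of all genes) and above for 4 (20.7%). Every TPEN library lay above every ONC library for 12 (12.5%) and below for 1 (15.6%).

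**Figure D2:**
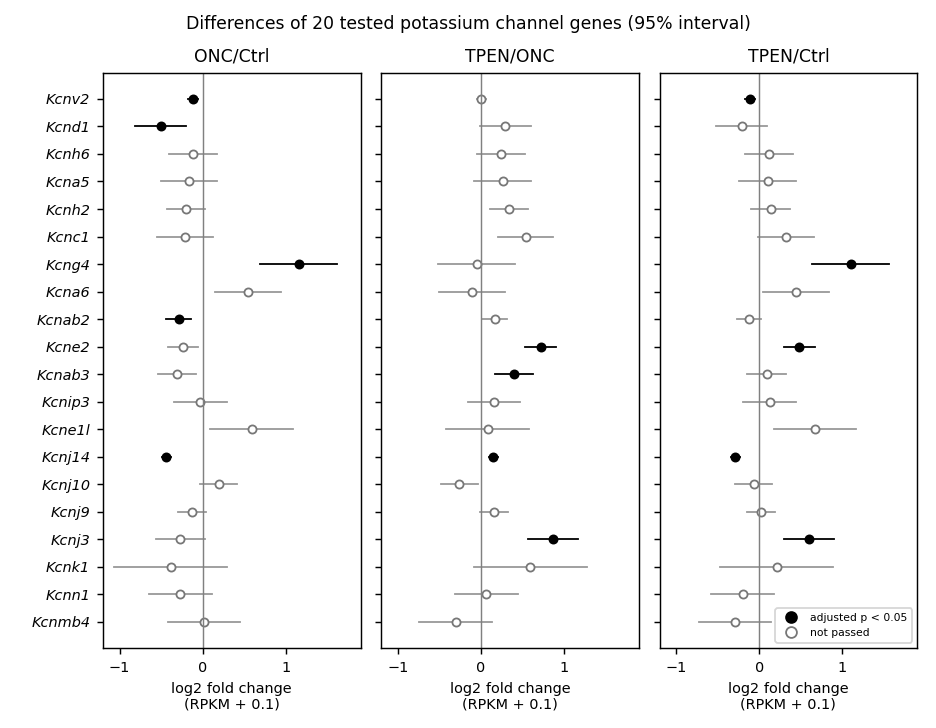
Log2 fold change of 20 of the 22 channel genes tested, with its 95% interval from limma, on the log2(RPKM + 0.1) scale, in ONC/Ctrl, TPEN/ONC and TPEN/Ctrl. Filled points passed an adjusted p under 0.05. In ONC/Ctrl most points lie left of 0 and Kcng4 lies farthest right, and in TPEN/ONC most lie right of 0.

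Among the inward rectifiers, Kcnj14 fell after ONC and rose with TPEN to a level below Ctrl, Kcnj3 rose with TPEN, and Kcnj9 and Kcnj10 did not pass the test. Of the 4 tested, 1 fell in ONC/Ctrl (6.97% of all genes did) and 2 rose in TPEN/ONC (3.24%). In TPEN/Ctrl, 1 rose (8.36%) and 1 fell (5.01%). Kcnj14, the most abundant channel gene, codes for a strong inward rectifier of neurons and lies on chromosome 7 (45816460 to 45824782, GRCm38, minus strand). Its level was 190.4, 185.9 and 190.6 RPKM in the Ctrl libraries, 141.7, 137.7 and 139 RPKM in ONC, and 155.9, 156.1 and 151.5 RPKM in TPEN. The 3 groups did not overlap, with Ctrl highest and ONC lowest. Its mean was 26.2% lower in ONC than in Ctrl, a log2 fold change of -0.44 (SE 0.02, adjusted p = 1.99e-06 by limma). In TPEN/ONC the log2 fold change was 0.15 (SE 0.02, adjusted p = 0.00686 by limma), and in TPEN/Ctrl -0.29 (adjusted p = 5.47e-05 by limma). Kcnj14 passed the test in each comparison under all 16 alternative settings. Of 9 rod markers, 7 fell and 1 rose in ONC/Ctrl, with log2 fold changes from -0.23 to 0.08, where 6.97% and 11.7% of all genes did. In TPEN/ONC, where Kcnj14 rose, 2 rod markers rose, 1 fell and 6 did not pass (3.24% of all genes rose and 4.14% fell).

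Kcnj3 codes for a subunit of the channels that G proteins open, as do Kcnj9 and Kcnj5. Its level was 0.941, 0.805 and 1.09 RPKM in Ctrl, 0.793, 0.760 and 0.735 RPKM in ONC, and 1.55, 1.54 and 1.33 RPKM in TPEN. All TPEN libraries were above those of the other groups, and all ONC libraries were below Ctrl. The log2 fold change was 0.86 in TPEN/ONC (SE 0.13, adjusted p = 0.00491 by limma), a ratio of means of 1.93. In TPEN/Ctrl it was 0.60 (adjusted p = 0.0164 by limma), and the adjusted p rose to 0.0574 without Ctrl replicate 2, 0.0599 without TPEN replicate 1 and 0.0584 without TPEN replicate 2. In ONC/Ctrl it was -0.27 (adjusted p = 0.205 by limma). Kcnj9 and Kcnj5 did not pass. Kcnj9 averaged 3.32 ± 0.172 RPKM in Ctrl, 3.03 ± 0.0600 in ONC and 3.38 ± 0.195 in TPEN (SD, n = 3 libraries), with adjusted p from 0.278 to 0.878 by limma. Kcnj5 averaged 0.240, 0.136 and 0.285 RPKM, below the limit for the test. Fitted without that limit, its log2 fold change was -0.54 in ONC/Ctrl (SE 0.24, adjusted p = 0.162 by limma) and 0.69 in TPEN/ONC (adjusted p = 0.129 by limma), where its ratio of means was 2.09.

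Kcnj10 codes for the main potassium channel of Müller glia. Its level was 3.94, 3.95 and 3.33 RPKM in Ctrl, 4.12, 4.10 and 4.65 RPKM in ONC, and 3.96, 3.36 and 3.36 RPKM in TPEN. The ONC libraries were above all others, and Ctrl and TPEN overlapped. The difference did not pass the test, with a log2 fold change of 0.19 in ONC/Ctrl (95% interval -0.03 to 0.42, adjusted p = 0.217 by limma) and -0.26 in TPEN/ONC (95% interval -0.49 to -0.04, adjusted p = 0.151 by limma). With voom on whole reads, the adjusted p in TPEN/ONC was 0.0489. Of 8 Müller glia markers, 2 rose and 3 fell in ONC/Ctrl, where 11.7% and 6.97% of all genes did. In TPEN/ONC, 2 rose and 4 fell, where 3.24% and 4.14% of all genes did. The summed level of the 8 markers ranged from 553 to 574 RPKM in Ctrl, from 617 to 629 in ONC and from 487 to 498 in TPEN. In ONC/Ctrl, 3 of the 8 log2 fold changes were above 0 and 5 below, so the sum does not stand for each marker. Apoe averaged 172, 268 and 178 RPKM in Ctrl, ONC and TPEN, and Glul 173, 116 and 103 RPKM. The part of Müller glia in the level of Kcnj10 was not tested.

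Voltage-gated channels made up 10 of the 22 genes tested. Of these 10, 3 fell in ONC/Ctrl, among them Kcnv2 and Kcnd1, and Kcng4 rose, where 6.97% and 11.7% of all genes did. In TPEN/ONC, 1 rose (3.24% of all genes) and 9 did not pass. In TPEN/Ctrl, Kcng4 rose (8.36% of all genes) and 2 fell, among them Kcnv2 (5.01%). Kcnv2 opens no channel on its own. The gene lies on chromosome 19 (27322588 to 27337179, plus strand). Its level was 132.9, 133.7 and 131.7 RPKM in Ctrl, 123.1, 124.1 and 119.7 RPKM in ONC, and 121.8, 120.5 and 125.7 RPKM in TPEN. Both injured groups were below Ctrl and overlapped each other. The log2 fold change was -0.12 in ONC/Ctrl (SE 0.03, adjusted p = 0.0111 by limma), 0.0045 in TPEN/ONC (95% interval -0.05 to 0.06, adjusted p = 0.949 by limma) and -0.11 in TPEN/Ctrl (adjusted p = 0.0186 by limma). The last lost the threshold without Ctrl replicate 1, Ctrl replicate 2, TPEN replicate 1 or TPEN replicate 2 (0.0591 to 0.0682).

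**Figure D3:**
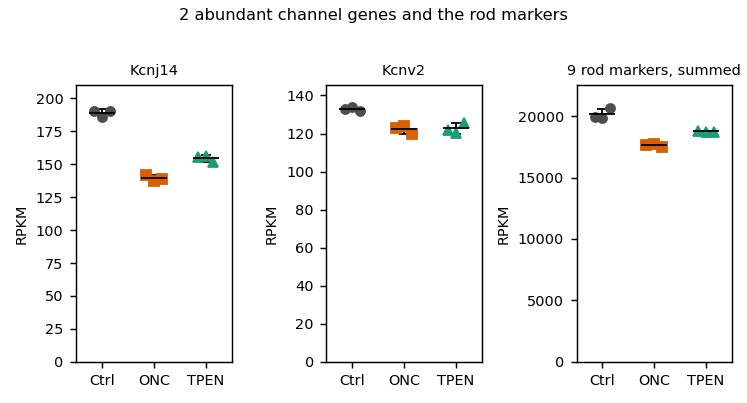
Levels in RPKM of Kcnj14, Kcnv2 and the sum of 9 rod markers. Points are libraries and bars the mean ± SD of 3 libraries a group. Kcnj14 and the rod sum are highest in Ctrl and lowest in ONC, while the ONC and TPEN libraries of Kcnv2 overlap.

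Ratios were formed within each library, and an exact permutation test set the 3 groups against each other, with 0.00357 as the smallest p that 3 groups of 3 allow. The p-values were adjusted over the 7 ratios computed. These ratios were chosen after the levels had been seen. Against the summed rod markers, Kcnj14 lay between 0.922% and 0.955% in Ctrl, between 0.777% and 0.802% in ONC and between 0.809% and 0.834% in TPEN (exact permutation p = 0.00357, adjusted p = 0.0250). The 3 groups did not overlap, and Kcnj14 was lowest relative to the rod markers in ONC. Leaving Gnat1 out of the sum gave the same p. Kcnv2 lay between 0.637% and 0.674% of the rod sum in Ctrl, between 0.684% and 0.701% in ONC and between 0.644% and 0.671% in TPEN (exact permutation p = 0.0643, adjusted p = 0.112). Every ONC library was above those of the other groups, which overlapped, and without Gnat1 in the sum the exact permutation p was 0.232. For Kcnv2 the exact permutation p was 0.0250 without Ctrl replicate 3 and 0.0464 without TPEN replicate 3.

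**Figure D4:**
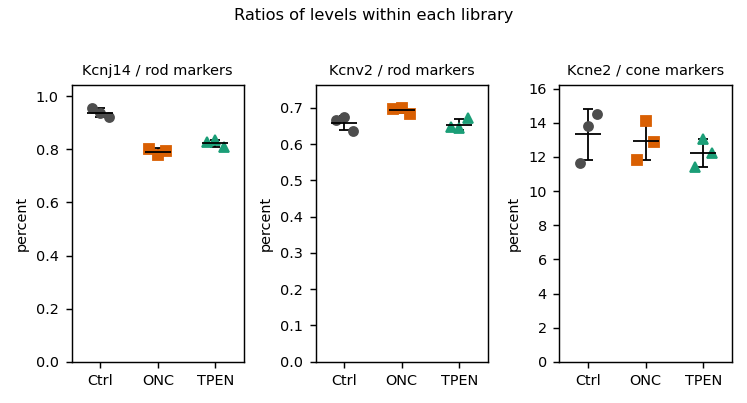
Levels of Kcnj14 and Kcnv2 as a percent of 9 summed rod markers, and that of Kcne2 as a percent of 7 summed cone markers. Points are libraries and bars the mean ± SD of 3 libraries a group. The ratio of Kcnj14 is highest in Ctrl and lowest in ONC, and that of Kcne2 to the cone markers overlaps between all groups.

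The channel DEG of ONC/Ctrl was Kcng4, which codes for another silent subunit that joins other voltage-gated channels and whose promoter activity is used to mark alpha RGCs. It lies on chromosome 8 (119623854 to 119635680, minus strand). Its level was 0.328, 0.387 and 0.366 RPKM in Ctrl, 0.800, 0.995 and 0.984 RPKM in ONC, and 1.14, 0.615 and 0.9747 RPKM in TPEN, from 28 to 87 reads a library. Every injured library was above every Ctrl library, and the TPEN libraries spread around those of ONC. The ratio of means was 2.57 in ONC/Ctrl, or 1.15 on the log2 scale (SE 0.21, adjusted p = 0.00355 by limma), and 2.53 in TPEN/Ctrl, or 1.10 on the log2 scale (adjusted p = 0.00662 by limma). Both were called in each of the 15 alternatives that kept the gene. In TPEN/ONC the log2 fold change was -0.05 (95% interval -0.52 to 0.41, adjusted p = 0.916 by limma) and turned to 0.18 without TPEN replicate 2 (adjusted p = 0.610 by limma). Markers of microglia and macrophages also rose in both comparisons with Ctrl, all 8 of those tested, as did 2 of 3 astrocyte markers. Of all genes, 11.7% rose in ONC/Ctrl and 8.36% in TPEN/Ctrl. The part of these cell types in the level of Kcng4 was not tested.

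Kcnd1, on chromosome X, codes for a channel of the transient A-type current. It had 2.58, 3.31 and 3.50 RPKM in Ctrl, 2.501, 2.04 and 1.96 RPKM in ONC, and 2.93, 2.56 and 2.51 RPKM in TPEN. The ONC libraries were below all others, the closest ONC and Ctrl libraries being 2.501 and 2.58 RPKM. The log2 fold change was -0.51 in ONC/Ctrl (SE 0.14, adjusted p = 0.0277 by limma), and the adjusted p was 0.0858 to 0.0931 without Ctrl replicate 2, Ctrl replicate 3, ONC replicate 2 or ONC replicate 3. In TPEN/ONC it was 0.29 (adjusted p = 0.242 by limma).

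The other voltage-gated genes tested did not pass in the main test. Kcnc1 codes for a channel of fast-spiking neurons. It averaged 0.928 ± 0.0718, 0.787 ± 0.0597 and 1.197 ± 0.226 RPKM in Ctrl, ONC and TPEN (SD, n = 3 libraries), with a log2 fold change of 0.54 in TPEN/ONC (adjusted p = 0.0625 by limma, and 0.00384 with voom on whole reads). Kcnh2, of the ether-a-go-go-related family, averaged 1.39 ± 0.0750, 1.201 ± 0.0889 and 1.54 ± 0.0716 RPKM (adjusted p = 0.0852 by limma in TPEN/ONC). Its relative Kcnh6 averaged 2.25 ± 0.0902, 2.08 ± 0.296 and 2.46 ± 0.359 RPKM. For these 3 genes ONC had the lowest mean and TPEN the highest. Kcna5 of the Shaker family averaged 1.59, 1.41 and 1.70 RPKM, in the same order. Kcna6, of the same family, went the other way in ONC/Ctrl, with 0.608, 0.386 and 0.394 RPKM in Ctrl and 0.659 to 0.776 RPKM in ONC. Its log2 fold change of 0.54 had a limma adjusted p of 0.0621, which was 0.0184 without Ctrl replicate 1 and 0.0220 with voom on whole reads. Kcna6 shares 39.6% of its exon bases with Gm26673 on the opposite strand, so its reads are uncertain.

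Among the auxiliary subunits, Kcnab2 fell after ONC and Kcne2 and Kcnab3 rose with TPEN. Of the 5 tested, 1 fell in ONC/Ctrl (6.97% of all genes did), 2 rose in TPEN/ONC (3.24%) and 1 rose in TPEN/Ctrl (8.36%). Kcnab2 codes for a beta subunit that binds Shaker channels in the cytoplasm. It had 52.3, 50.8 and 60.3 RPKM in Ctrl, 45.7, 46.5 and 41.5 RPKM in ONC, and 52.0, 48.7 and 48.9 RPKM in TPEN. The ONC libraries were below all others, and Ctrl and TPEN overlapped. The log2 fold change was -0.29 in ONC/Ctrl (SE 0.07, adjusted p = 0.0145 by limma), and its adjusted p was 0.0529 without ONC replicate 3. In TPEN/ONC it was 0.16 (adjusted p = 0.188 by limma, and 0.0210 with voom on whole reads).

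Kcne2 codes for a single-pass membrane subunit that assembles with several voltage-gated channels. It had 16.0, 18.7 and 19.0 RPKM in Ctrl, 13.9, 15.9 and 15.6 RPKM in ONC, and 23.0, 26.7 and 25.2 RPKM in TPEN. The 3 groups did not overlap, with TPEN highest and ONC lowest. In TPEN/ONC its mean was 64.9% higher, a log2 fold change of 0.72 (SE 0.08, adjusted p = 0.00103 by limma). In TPEN/Ctrl its log2 fold change was 0.48 (adjusted p = 0.00416 by limma), a ratio of means of 1.40, and both were called under all 16 alternatives. In ONC/Ctrl it was -0.24 (adjusted p = 0.0779 by limma), with an adjusted p of 0.0275 without Ctrl replicate 1 and 0.0359 after quantile normalization.

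All 7 cone markers moved the same way as Kcne2 and Kcnj3 with TPEN. They rose in TPEN/ONC, with log2 fold changes from 0.59 to 0.96, and in TPEN/Ctrl, with log2 fold changes from 0.45 to 0.68, while 4 of the 7 fell in ONC/Ctrl. Opn1sw, Opn1mw and Arr3, which define cones, averaged 19.4, 5.54 and 43.1 RPKM. Kcne2 lay between 11.7% and 14.5% of the summed cone markers in Ctrl, between 11.8% and 14.1% in ONC and between 11.4% and 13.0% in TPEN (exact permutation p = 0.525). Kcnj3 lay between 0.596% and 0.833%, between 0.605% and 0.677%, and between 0.646% and 0.771% (exact permutation p = 0.568). The groups overlapped in both ratios. Of 4 amacrine markers tested, 3 rose in TPEN/ONC and 2 in TPEN/Ctrl, where 3.24% and 8.36% of all genes did, and none fell. Of 8 bipolar markers, 1 rose in TPEN/ONC. The part of any cell type in the levels of Kcne2 and Kcnj3 was not tested.

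**Figure D5:**
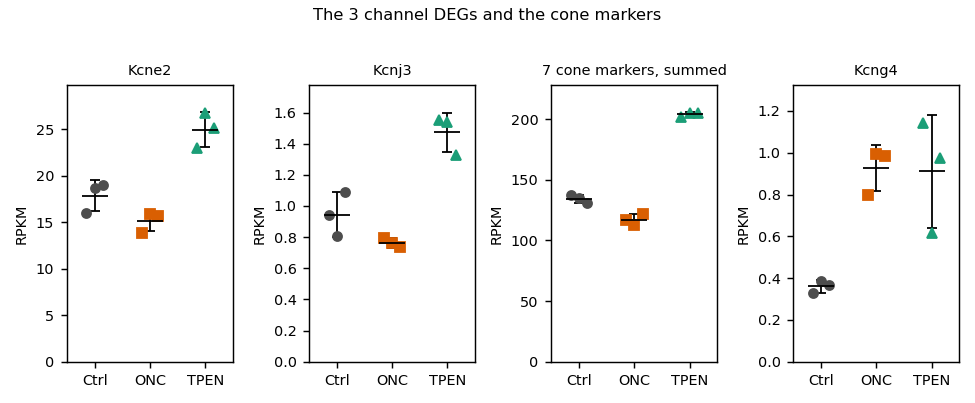
Levels in RPKM of Kcne2, Kcnj3, the sum of 7 cone markers and Kcng4. Points are libraries and bars the mean ± SD of 3 libraries a group. Kcne2, Kcnj3 and the cone sum are highest in the TPEN libraries and lowest in ONC, whereas Kcng4 is lowest in the 3 Ctrl libraries.

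The promoters of these 3 DEGs are shown to let Kcne2 and Kcnj3, which rose together with TPEN, be read beside Kcng4, which rose with injury. Each stretch runs from 250 bases before to 50 bases after the transcript start of RefSeq (GRCm38.p6) that coincides with the 5′ end of the gene in the table. Kcnj3 is at chr2:55435720-55436019 on the plus strand, Kcne2 at chr16:92292139-92292438 on the plus strand, and Kcng4 at chr8:119635631-119635930 on the minus strand. Each is written 5′ to 3′ on the strand of the gene, and capitals mark TAATCC, the core recognized by the photoreceptor factors CRX and OTX2, searched on both strands.
Kcnj3: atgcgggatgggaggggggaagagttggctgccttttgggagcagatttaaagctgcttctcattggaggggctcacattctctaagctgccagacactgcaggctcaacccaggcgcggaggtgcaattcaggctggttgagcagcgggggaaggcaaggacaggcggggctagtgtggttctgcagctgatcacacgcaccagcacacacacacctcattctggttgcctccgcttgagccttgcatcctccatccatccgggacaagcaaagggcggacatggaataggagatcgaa
Kcne2: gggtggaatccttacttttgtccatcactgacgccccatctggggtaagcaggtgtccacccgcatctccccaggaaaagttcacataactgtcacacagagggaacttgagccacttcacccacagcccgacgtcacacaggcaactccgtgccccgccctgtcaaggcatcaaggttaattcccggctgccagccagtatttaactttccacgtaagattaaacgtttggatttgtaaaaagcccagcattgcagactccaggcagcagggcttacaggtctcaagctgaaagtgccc
Kcng4: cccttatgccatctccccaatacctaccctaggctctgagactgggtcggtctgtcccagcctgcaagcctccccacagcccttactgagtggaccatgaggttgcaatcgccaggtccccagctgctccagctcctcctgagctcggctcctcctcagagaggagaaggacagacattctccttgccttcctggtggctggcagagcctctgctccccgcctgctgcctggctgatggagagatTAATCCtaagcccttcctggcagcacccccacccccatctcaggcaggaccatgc
The letters TAATCC begin 5 bases before the start of Kcng4, end on the start base itself and are not in the windows of Kcnj3 and Kcne2 printed here. They were found in 2320 of 32851 RefSeq promoters of this length (7.06%), and in 2 of 36 promoters of the 27 channel genes that had an entry, those of Kcng4 and Kcnj9.

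Kcnab3, which codes for another beta subunit, had 2.51, 2.73 and 2.57 RPKM in Ctrl, 1.93, 2.16 and 2.17 RPKM in ONC, and 2.55, 3.19 and 2.62 RPKM in TPEN. The ONC libraries were below all others. Its rise in TPEN/ONC, 0.40 on the log2 scale (SE 0.10, adjusted p = 0.0488 by limma), lost the threshold when any of the 9 libraries was left out (adjusted p from 0.0601 to 0.152). Kcnab3 shares 5.13% of its exon bases with Kcnab3os on the opposite strand. Kcnip3, the calcium sensor also known as calsenilin, averaged 2.02 ± 0.227, 1.99 ± 0.403 and 2.21 ± 0.113 RPKM (SD, n = 3 libraries), with adjusted p from 0.581 to 0.907 by limma. Kcne1l averaged 0.3601, 0.583 and 0.632 RPKM from 9 to 24 reads a library, with a log2 fold change of 0.59 in ONC/Ctrl (adjusted p = 0.0983 by limma).

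Of the two-pore channels Kcnk1 and of the calcium-activated class Kcnn1 and Kcnmb4 entered the main test. None of these 3 passed in a comparison with limma or with voom on whole reads, and each 95% interval held 0. Kcnk1 averaged 1.25 ± 0.205 RPKM in Ctrl, 0.961 ± 0.338 in ONC and 1.54 ± 0.724 in TPEN (SD, n = 3 libraries), and TPEN replicate 3, at 2.38 RPKM, was above the 1.12 and 1.13 RPKM of the other TPEN libraries. Its log2 fold change in TPEN/ONC was 0.59, with a 95% interval from -0.09 to 1.27 (adjusted p = 0.293 by limma). Kcnk3 averaged 0.354, 0.328 and 0.314 RPKM, below the limit for the test. Kcnn1, a small-conductance channel, averaged 1.903 ± 0.318, 1.56 ± 0.172 and 1.65 ± 0.335 RPKM. Kcnmb4, the beta subunit of the large-conductance channel in neurons, averaged 0.990 ± 0.223, 0.987 ± 0.0609 and 0.791 ± 0.186 RPKM, and it shares 10.7% and 20.8% of its exon bases with the antisense Kcnmb4os1 and Kcnmb4os2. Kcnma1, the pore of that channel, averaged 0.413, 0.324 and 0.504 RPKM. In all, 13 of the 22 genes tested passed in no comparison. Their log2 fold changes ranged from -0.38 to 0.59 in ONC/Ctrl, from -0.31 to 0.59 in TPEN/ONC and from -0.29 to 0.67 in TPEN/Ctrl.

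The 18 scarce channel genes were fitted without the filter on low levels, over all 15228 genes. In ONC/Ctrl, 2 fell, against 6.43% of all genes, and 16 of the 18 log2 fold changes were below 0. Kcnc4 averaged 0.424 RPKM in Ctrl, 0.174 in ONC and 0.222 in TPEN, a log2 fold change of -0.94 in ONC/Ctrl (SE 0.28, adjusted p = 0.0404 by limma). Kcnd3, of the A-type family of Kcnd1, had a log2 fold change of -0.70 (adjusted p = 0.0430 by limma). In TPEN/ONC, 2 rose, against 3.15% of all genes, and 15 of 18 values were above 0. Kcna2, a Shaker channel of axons, had 0.333, 0.418 and 0.293 RPKM in Ctrl, 0.267, 0.227 and 0.241 RPKM in ONC, and 0.643, 0.578 and 0.560 RPKM in TPEN, from 62 to 153 reads a library. The 3 groups did not overlap. Its log2 fold change was 1.01 in TPEN/ONC (SE 0.15, adjusted p = 0.00385 by limma) and 0.64 in TPEN/Ctrl (adjusted p = 0.0206 by limma), the 1 rise of a scarce gene there, against 8.92% of all genes. Kcnt1 averaged 0.294, 0.196 and 0.375 RPKM, and its log2 fold change was 0.69 in TPEN/ONC (adjusted p = 0.0492 by limma). Kcnq3, of the M-current, averaged 0.0376, 0.0487 and 0.0612 RPKM and did not pass. Kcnh7, Kcna4, Kcnb2, Kcnip2, Kcnip4, Kcnab1, Kcnn2 and Kcnq1ot1 averaged between 0.109 and 0.346 RPKM over the 9 libraries and did not pass either. The ONC mean was the lowest of the 3 for 14 of the 18 scarce genes, or 77.8%, against 31.6% of the 13566 genes averaging 0.5 RPKM or more. Neither this share nor that of signs was worked out for other scarce genes. These counts therefore cannot show whether the pattern is particular to scarce channel genes.

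Other genes of potassium handling were counted from a list of 40, of which 24 were tested. In ONC/Ctrl, 3 rose and 6 fell, in TPEN/ONC 2 rose and 1 fell, and in TPEN/Ctrl 2 rose and 1 fell, to be read against the shares of all genes given above. Among 10 pumps and cotransporters tested, the sodium pump subunit Atp1b2 was the most abundant. It averaged 380 ± 10.1, 384 ± 1.94 and 371 ± 5.43 RPKM in Ctrl, ONC and TPEN, and it did not pass. The potassium chloride cotransporter Slc12a5 fell in ONC/Ctrl, by 0.16 on the log2 scale (SE 0.04, adjusted p = 0.0207 by limma). It lost the threshold without ONC replicate 2 (adjusted p = 0.0736 by limma) or ONC replicate 3 (0.0597).

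Of 9 accessory and anchoring proteins tested, 3 fell in ONC/Ctrl (6.97% of all genes did) and 2 rose in TPEN/ONC (3.24%). Dpp6, a partner of the A-type channels, averaged 0.936 ± 0.0811 RPKM in Ctrl, 0.655 ± 0.0438 in ONC and 1.26 ± 0.0267 in TPEN (SD, n = 3 libraries). Its log2 fold change was -0.46 in ONC/Ctrl (adjusted p = 0.0230 by limma) and 0.85 in TPEN/ONC (SE 0.12, adjusted p = 0.00267 by limma). The fall lost the threshold without Ctrl replicate 1, Ctrl replicate 2, ONC replicate 2 or ONC replicate 3 (adjusted p from 0.0678 to 0.0841). Dlg4, the scaffold that clusters Shaker channels at synapses and the most abundant of these genes, averaged 253 ± 6.30, 226 ± 3.66 and 226 ± 0.802 RPKM and fell in ONC/Ctrl and in TPEN/Ctrl, by 0.16 on the log2 scale in both (adjusted p = 0.00178 and 0.00260 by limma). Dmd, the dystrophin gene, averaged 10.04 ± 0.580, 8.79 ± 0.312 and 10.8 ± 0.415 RPKM. Its log2 fold change was 0.30 in TPEN/ONC (adjusted p = 0.0139 by limma, and 0.0571 and 0.0561 without ONC replicate 2 or TPEN replicate 3) and -0.19 in ONC/Ctrl (adjusted p = 0.0464 by limma), and the latter lost the threshold in 8 of the 9 fits that left out a library (adjusted p from 0.0510 to 0.143), all but that without Ctrl replicate 3.

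Of 3 voltage-gated sodium channel genes tested, Scn8a averaged 8.98 ± 0.0872, 11.3 ± 0.441 and 10.3 ± 0.279 RPKM. It rose in ONC/Ctrl by 0.33 on the log2 scale (SE 0.05, adjusted p = 7.75e-04 by limma), and in TPEN/Ctrl by 0.20 (adjusted p = 0.0193 by limma, and 0.0518 to 0.0686 without Ctrl replicate 1, Ctrl replicate 2 or TPEN replicate 1). The auxiliary subunit Scn2b differed in ONC/Ctrl by -0.59 on the log2 scale (adjusted p = 0.0444 by limma). This call was lost in every fit that left out a library (adjusted p up to 0.139) except that without ONC replicate 2. Of 4 hyperpolarization-activated channel genes, 2 were tested and passed in no comparison.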

How the data were processed

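mRNA of cells sorted as RGCs was sequenced in 9 libraries, 3 each of Ctrl, ONC and TPEN, grouped by their labels. Per the submitters' processing notes and the study's methods, the authors trimmed reads with Trimmomatic 0.36 and mapped them with STAR to GRCm38 (mm10). The RPKM values were computed and deposited by the authors, and scale the reads of each gene to its exon length and to library size. The deposited exon length of each gene is in bases. Another 9 deposited columns hold the p-values, FDR values and log2 fold changes of the authors' own edgeR comparisons and were not used. The counting program, the annotation, the use of strand and of molecular identifiers in counting, and the sources of the libraries of a group are not given in the sources used here.

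The product of RPKM and exon length moved in steps of 1 size per library (tolerance 0.001), which gave whole reads and library totals. Values as log2(RPKM + 0.1) were analysed in R 4.3.3 using limma 3.58.1 (variance trended on the mean, 1 coefficient per group, 13566 genes averaging 0.5 RPKM or more) and Benjamini-Hochberg adjustment over all of them. The fit was tested on simulated data. Ratios were compared with exact permutation tests. Python 3.11.15 was used with pandas 2.3.3 and matplotlib 3.10.9.

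The genes, classes, lists and tests were chosen with earlier results of these data known. Named with values are channel genes that passed in any comparison, the 4 most abundant of each class, the landmarks and the partners that passed or led their list. Some of these genes enter the counts and are not reported here. Further genes named were chosen with their values in view. The alternatives were quantile normalization, dropping the filter on low genes, raising it to 1 RPKM, a pseudocount of 1 RPKM, the 6 libraries compared alone, the replicate number as a block, voom on whole reads and leaving out each library. Rod sums without Gnat1 and ratios with a library left out were added after seeing the data. With 3 libraries a group and scarce genes down to 8 reads, precision is limited by the number of libraries and by the reads of a gene. Exon overlaps are those of the deposited gene positions. Promoters are those of RefSeq (GRCm38.p6).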

Additional observations from a re-analysis of the deposited data

How the results depend on the processing

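The number of channel genes called was 6 in ONC/Ctrl (4 to 8 with any library left out), 5 in TPEN/ONC (3 to 5) and 6 in TPEN/Ctrl (3 to 5). In TPEN/ONC it was 3 under the replicate block and 8 with voom on whole reads, which added Kcnab2 and Kcnc1 as higher and Kcnj10 as lower. It was 3 in TPEN/ONC without ONC replicate 1, 2 or 3 or TPEN replicate 1 or 3, and 3 in TPEN/Ctrl without Ctrl replicate 2 or TPEN replicate 1 or 2. Partners called numbered 9 in ONC/Ctrl (5 to 8 with a library left out, 5 with only the 6 libraries compared and 5 with the replicate block), 3 in TPEN/ONC (1 to 4, with 1 without TPEN replicate 3, and 5 with voom) and 3 in TPEN/Ctrl (2 to 4, and 8 with voom). Differences that passed no test changed sign for Kcnv2 in TPEN/ONC (-0.011 without ONC replicate 3, range -0.014 to 0.017 over the libraries left out), Kcng4 in TPEN/ONC (range -0.22 to 0.18, the latter without TPEN replicate 2) and Kcnab3 in TPEN/Ctrl (range -0.0085 to 0.15, the former without TPEN replicate 2). The cause was not tested. With a pseudocount of 1 RPKM, the channel DEGs were 0 higher in ONC/Ctrl, 1 in TPEN/ONC and 0 in TPEN/Ctrl, since it shrinks the fold changes of scarce genes such as Kcng4 and Kcnj3. The shares of all genes were then 3.14%, 0.287% and 1.82%. Without the filter on low genes, when all 40 were tested, the channel DEGs were 1 higher (6.19% of all genes) and 2 lower (0.847%) in ONC/Ctrl. They were 4 higher in TPEN/ONC (0.992%) and 3 higher in TPEN/Ctrl (4.5%). With voom, 740 of all genes were called higher and 948 lower in TPEN/ONC, against 440 and 562. After quantile normalization, 1447 of all genes were lower in ONC/Ctrl, against 946, and 1268 higher, against 1590.

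The labels do not say whether the replicate numbers pair the samples. The deviations of libraries with the same number had correlations between -0.062 and 0.027. With 3 libraries a group, and without libraries of different numbers set beside them, these values cannot decide whether samples were paired. With the block, Kcne2 in ONC/Ctrl passed the test (adjusted p = 0.00712), and Kcnd1 in ONC/Ctrl (0.0616), Kcnv2 in TPEN/Ctrl (0.0563) and Kcnab3 in TPEN/ONC (0.0534) did not.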
